A study of Mus musculus with 6 samples.

Results

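Cells use extracellular ATP and adenosine as signals, and 10 genes that receive or remove these signals were read in RNA from the mouse enamel organ, out of 46603 genes in the count tables. They were chosen by name: the adenosine receptors Adora1, Adora2a and Adora2b, the ATP receptors P2rx4, P2rx7 and P2ry2, the ectonucleotidases Entpd1, Entpd2 and Nt5e, and the adenosine deaminase Ada. The choice was made with earlier results known, among them the lower level of Adora2b in the knockout, so that difference is described here without a test. The enamel organ is the epithelial tissue of a growing tooth, and it holds the ameloblasts, which secrete and then mature the enamel.

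All 6 libraries came from primary enamel organ cells of the lower incisors of C57BL/6 mice. The Stim1/2 knockout group (DKO) has libraries 1, 3 and 4, and the wild-type group (WT) has libraries 1, 2 and 3. STIM1 and STIM2 are sensors in the membrane of the endoplasmic reticulum that open calcium channels of the cell surface once the store has lost its calcium (store-operated calcium entry). The labels name no age, sex, treatment, Cre driver or promoter, and do not say in which cells the genes were deleted or whether the libraries of a group came from separate animals.

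ATP that leaves a cell binds P2X receptors, which are cation channels that let calcium in, and P2Y receptors, which act through G proteins. Ectonucleotidases on the cell surface cut ATP stepwise to AMP, and 5'-nucleotidase (Nt5e, also called CD73) turns AMP into adenosine. Adenosine then binds the P1 receptors, of which Adora1 lowers cAMP while Adora2a and Adora2b raise it, and it is removed by uptake or by deamination to inosine, the reaction Ada catalyses. P2ry2 couples to the release of calcium from the store that STIM proteins monitor.

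Each library held between 18609759 and 22829411 counts. Levels are given as CPM, counts per 1000000 counts of the scaled library, when the same gene is compared between libraries, and as FPKM, which also divides by transcript length, when different genes are compared. Both targeted genes were lower in DKO. Stim1 was at 107, 143 and 125 CPM in DKO 1, 3 and 4 against 413, 492 and 362 in WT 1, 2 and 3 (adjusted p = 0.00553 by edgeR's quasi-likelihood test). Stim2 was at 105, 136 and 125 against 229, 310 and 245 (adjusted p = 0.0180). Removal of DKO 1, DKO 3, DKO 4 or WT 3 ended the Stim2 call, with adjusted p-values between 0.0574 and 0.0987, and so did a term for high Xist (0.0557) and limma on all genes with an FPKM above 0 (0.126). The ameloblast genes Amelx and Ambn, which encode enamel matrix proteins, were at 28849 CPM or more in every library. DKO 1, WT 1 and WT 2 had Xist, the RNA of the inactive X chromosome in females, at 488 CPM or more, and the other libraries had 1.22 CPM or less, so each group held libraries of both kinds in unequal number.

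The sequence just upstream of Adora2b is shown because this gene has the largest fold difference of the 9 genes with enough counts to be tested. The 250 bases lie on chromosome 11 at chr11:62248734-62248983, plus strand, in the RefSeq promoter table for GRCm38.p6, which had entries for 9 of the 10 genes. Capitals mark matches, on either strand, to GGAAA (the core of NFAT sites; NFAT is a transcription factor switched on by calcium), CCAAT (the CCAAT box) and GGGCGG (the GC box).

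Adora2b: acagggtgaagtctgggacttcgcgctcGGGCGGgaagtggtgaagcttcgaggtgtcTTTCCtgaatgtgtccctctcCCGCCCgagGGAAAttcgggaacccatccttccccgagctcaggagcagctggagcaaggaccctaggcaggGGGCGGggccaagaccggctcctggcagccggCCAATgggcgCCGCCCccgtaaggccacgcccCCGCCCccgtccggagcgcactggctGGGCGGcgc

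GGAAA occurred 2 times in this window, CCAAT 1 time and GGGCGG 6 times, with 0 pairs of overlapping matches, and 69.6% of the bases were G or C. Over 32851 promoter windows of the same length, 55.6% held GGAAA, 33.8% CCAAT and 32.7% GGGCGG. The letters ACGTG (core of the hypoxia response element, in 16.6% of the windows) and TGACG (core of the cAMP response element, in 17.8%) were searched on both strands and were not in the Adora2b window. A match describes these letters and is not a measured binding site.

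Adora2b (ENSMUSG00000018500, chromosome 11, 62248984 to 62266453) encodes the low-affinity adenosine receptor that couples to Gs and raises cAMP. It was at 10.5 CPM in DKO 1, 14.9 in DKO 3 and 16.4 in DKO 4, against 57.1 in WT 1, 46.6 in WT 2 and 31.3 in WT 3. Every DKO library lay below every WT library, and the WT libraries spread more widely than the DKO ones. The means were 13.9 ± 3.04 CPM (SD, n = 3) in DKO and 45.0 ± 12.96 (SD, n = 3) in WT, a 3.23-fold lower level and a log2 fold change of -1.69 with a standard error of 0.24. The raw counts behind these values were 210, 293 and 306 in DKO and 1346, 962 and 719 in WT, so counting error is small beside the spread between libraries.

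**Figure D1:**
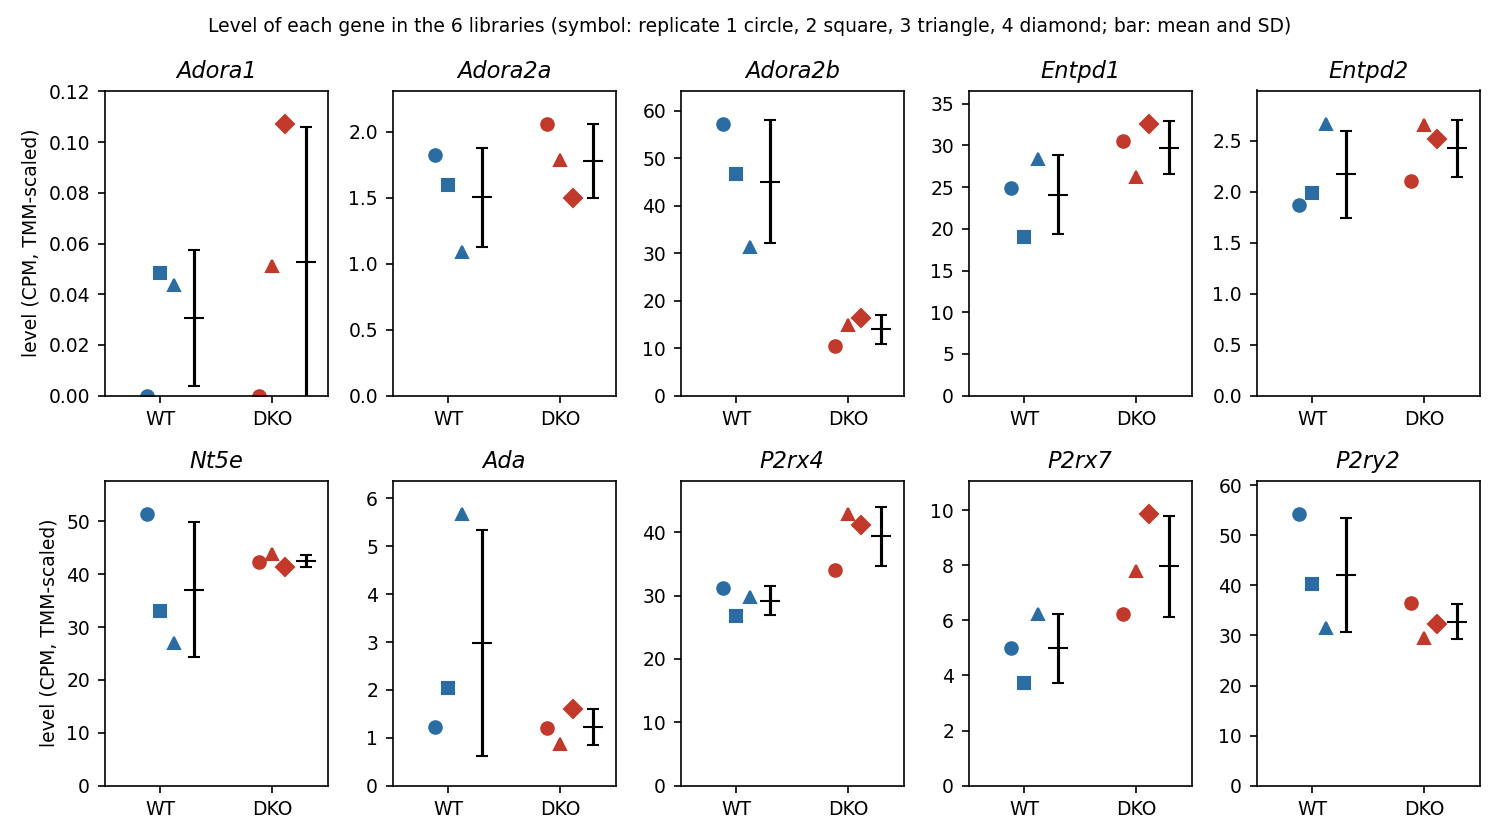
Expression of the 10 genes in CPM (vertical axis, own linear scale from 0 in each panel) in each DKO and WT library; each point is a library, its symbol gives the replicate number, and the bars beside them are the group mean and SD (the lower SD bar of Adora1 in DKO is cut at 0). The Adora2b points of DKO (10.5 to 16.4) lie below those of WT (31.3 to 57.1), and only P2rx4 among the other genes also has groups that do not overlap.

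The size of the Adora2b difference depended on the libraries set side by side. Among the libraries with high Xist it was 4.92-fold lower in DKO (10.5 CPM in 1 library against a mean of 51.9 in 2), and among those with low Xist 2.00-fold lower (a mean of 15.6 CPM in 2 libraries against 31.3 in 1). The difference between these ratios was not tested. Leaving out 1 library at a time gave log2 fold changes from -1.89 without WT 3 to -1.48 without WT 1. In bulk RNA, fewer cells of a type and less RNA per cell cannot be told apart.

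The summed levels of dental epithelium and oral keratinocyte markers were lower in DKO, as was Adora2b, while those of ameloblast markers were not. The summed CPM of 11 markers of dental epithelium was 9576 to 10245 in DKO and 11624 to 13622 in WT, and that of 11 markers of oral keratinocytes, the cells of the gum and mouth lining, was 78.3 to 133 in DKO and 272 to 476 in WT. The members of the dental epithelium list did not move together: 2 of 11, Msx2 and Dlx3 (chosen after their values were seen), had log2 fold changes above 0, 0.21 and 0.30. The groups did not overlap for 4 of 11, against 23.3% of all tested genes. For 10 ameloblast markers the sums were 138557 to 206671 CPM in DKO and 97022 to 163343 in WT, with 7 of 10 above 0 (median 0.21). The sums of 10 stratum intermedium markers overlapped (6634 to 7831 and 6012 to 7697), but only 3 of 10 lay above 0 (median -0.30). Its 2 highest, the connexin Gja1 and the phosphatase Alpl, were among these 3 (0.11 and 0.49). At an unadjusted p of 0.05, 7 of the 10 passed by edgeR, 6 of them lower in DKO, against 18.0% of all tested genes. Groups did not overlap for 6 of the 10. No marker of the dental epithelium or oral keratinocyte list was at 0 in all libraries. Of the 8 tested oral keratinocyte markers 1 fell by edgeR, where 0.306% of all tested genes did. It was the stress keratin Krt6a (328 ± 94.1 CPM in WT and 84.9 ± 24.0 in DKO, SD, n = 3). Krt6b, the next highest of that list, was at 16.8 ± 9.57 CPM in the WT libraries and 3.66 ± 2.12 in the DKO libraries. The 2 highest dental epithelium markers were the basal keratins Krt5 (4339 ± 341 and 2992 ± 159) and Krt14 (4084 ± 426 and 2956 ± 92.8), and neither these nor Krt6b passed. Removal of DKO 3, DKO 4 or WT 3 ended the Krt6a call, with adjusted p-values between 0.0770 and 0.114, as did the term for high Xist (0.0563) and limma on all genes with an FPKM above 0 (0.183). The part of these markers in the Adora2b values was not tested.

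The other adenosine receptors were far lower. Adora2a (ENSMUSG00000020178, chromosome 10, 75316877 to 75334784), the high-affinity Gs-coupled receptor, was at 2.06, 1.78 and 1.498 CPM in DKO 1, 3 and 4 and at 1.82, 1.599 and 1.09 in WT 1, 2 and 3. The groups overlapped, and the log2 fold change was 0.24 with a standard error of 0.29 (adjusted p = 0.707 by edgeR). Adora1 (ENSMUSG00000042429, chromosome 1, 134199223 to 134235431), the Gi-coupled receptor, had 0, 1 and 2 counts in the DKO libraries and 0, 1 and 1 in WT, 5 counts in all. It was at or below the level of 3 counts in every library (0.127 to 0.160 CPM), so no fold change is given, and its exons overlap those of Mybph. By FPKM, Adora2b was set against the summed level of Adora1, Adora2a, Adora2b and a further adenosine receptor, Adora3. It made up 97.3 to 97.7% of that sum in the WT libraries and 86.8% to 93.0% in DKO. Adora2b was thus the main adenosine receptor transcript among these in every library of both groups.

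The ion channel P2rx4 (ENSMUSG00000029470, chromosome 5, 122707544 to 122729738) is opened by ATP and is found on lysosomes as well as on the cell surface. It was at 34.1, 42.8 and 41.2 CPM in DKO 1, 3 and 4 and at 31.2, 26.7 and 29.7 in WT 1, 2 and 3. All DKO libraries were above all WT libraries. The means were 39.4 ± 4.65 and 29.2 ± 2.28 CPM (SD, n = 3), a ratio of 1.35 and a log2 fold change of 0.43 with a standard error of 0.11. It did not pass the test (adjusted p = 0.112 by edgeR; exact two-sided permutation p = 0.1, the smallest that 3 libraries against 3 allow). Among the libraries with high Xist the ratio was 1.18 and among those with low Xist 1.41. DESeq2 did call it (adjusted p = 0.0295), and over all alternatives the adjusted p ranged from 0.0295 to 0.304.

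P2rx7 (ENSMUSG00000029468, chromosome 5, 122643911 to 122691432) is opened by high ATP, is known in macrophages as the trigger of the NLRP3 inflammasome, and lies 16111 bases from P2rx4 on the same strand. Its levels were 6.22, 7.80 and 9.84 CPM in DKO and 5.01, 3.73 and 6.23 in WT. DKO 1 lay just under WT 3, so the groups met at 1 point, while by FPKM they were apart (2.14 to 2.67 in DKO, 1.05 to 1.70 in WT). The log2 fold change was 0.67 with a standard error of 0.24 (adjusted p = 0.208 by edgeR), and with the replicate block, which ties libraries of the same number together, it was 0.32. DKO 4 and WT 2 have no partner of the same number, so the block compares only DKO 1 and 3 with WT 1 and 3. Its exons overlap the microRNA gene Mir8115, so some reads may have been shared with it.

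P2ry2 (ENSMUSG00000032860, chromosome 7, 100996568 to 101012866), the receptor for ATP and UTP that couples to Gq, was at 36.4, 29.6 and 32.4 CPM in DKO and at 54.2, 40.4 and 31.5 in WT. The groups overlapped, with WT 1 the highest library and DKO 3 the lowest. The log2 fold change was -0.36 with a standard error of 0.19 (adjusted p = 0.363 by edgeR), and -0.13 without WT 1, its highest library. P2rx4 and P2rx7 lay above 0 on the log2 scale and P2ry2 below it, and none of the ATP receptors passed the test.

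Of the enzymes, Entpd1 (ENSMUSG00000048120, chromosome 19, 40612366 to 40741602), or CD39, cuts ATP and ADP to AMP and is known from leukocytes and endothelium. It was at 30.5, 26.2 and 32.5 CPM in DKO and at 24.9, 18.999 and 28.3 in WT. The groups overlapped, with WT 2 lowest, and the log2 fold change was 0.30 with a standard error of 0.15 (adjusted p = 0.350 by edgeR). Entpd2 (ENSMUSG00000015085, chromosome 2, 25395874 to 25401321), which cuts mainly ATP to ADP, stayed between 1.87 and 2.66 CPM in all libraries and had a log2 fold change of 0.16 with a standard error of 0.23 (adjusted p = 0.774 by edgeR). By FPKM it was at 2.70 to 2.96 in DKO and 2.03 to 2.56 in WT, without overlap. Its exons overlap those of Npdc1, so part of its counts is uncertain.

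Nt5e (ENSMUSG00000032420, chromosome 9, 88327197 to 88372092) was at 42.3, 43.8 and 41.4 CPM in DKO and at 51.3, 33.1 and 26.9 in WT. Its DKO libraries were close together and fell inside the wide range of WT, with means of 42.5 ± 1.20 and 37.1 ± 12.7 CPM (SD, n = 3). The log2 fold change was 0.20 with a standard error of 0.21 (adjusted p = 0.677 by edgeR), and ran from 0.01 without WT 3 to 0.51 without WT 1. The FPKM ratio of Nt5e to Entpd1, an enzyme that makes adenosine over an enzyme that makes AMP, was 0.966, 1.26 and 1.04 in DKO 1, 3 and 4 and 1.61, 1.12 and 0.622 in WT 1, 2 and 3. The ratios of the groups overlapped. Other enzymes act on the same nucleotides: the phosphatase Alpl, which also dephosphorylates AMP, had a mean of 737 FPKM in WT against 8.85 for Nt5e.

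Ada (ENSMUSG00000017697, chromosome 2, 163726584 to 163750239) was at 1.20, 0.866 and 1.60 CPM in DKO and at 1.23, 2.04 and 5.67 in WT. A single library, WT 3, stood above the others. The log2 fold change was -1.28 with a standard error of 0.57 (adjusted p = 0.289 by edgeR) and was -0.41 without WT 3. Krt4 and Krt13, keratins of the oral lining that were picked after their values were seen, were also highest in WT 3: Krt4 at 17.2 CPM against 0.66 to 5.28 in the other libraries, and Krt13 at 10.4 against 0.34 to 5.86. Of all 11 oral keratinocyte markers, 8 were highest in WT 3, while Krt6a and Krt10 were highest in WT 1 and Krt1 in DKO 4. Their sum, most of it Krt6a, was highest in WT 1 (476 CPM, against 427 in WT 3). Their part in the Ada values was not tested.

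Adora2b apart, 8 of the remaining 9 genes had enough counts to be tested, and 0 of them passed an adjusted p of 0.05 by edgeR, where 1.04% of the 14721 tested genes did (108 or 0.734% higher and 45 or 0.306% lower in DKO). At an unadjusted p of 0.05, P2rx4 and P2rx7 passed, that is 2 of 8, against 18.0% of all tested genes. By DESeq2, which called 5.88% of all genes and 3.25% as higher in DKO, 1 of the 8 passed, P2rx4, which was higher. Groups did not overlap for 1 of the 8, against 23.3% of all tested genes. The median log2 fold change of the 8 was 0.22, with 6 above 0, beside -0.01 over all tested genes. Within the libraries of high and of low Xist, the log2 ratios of the means were above 0 both times for Adora2a, P2rx4, P2rx7, Entpd1 and Nt5e and below 0 both times for P2ry2 and Ada, while Entpd2 was at 0.13 and -0.04.

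The levels of the genes were ordered by mean FPKM. In WT, Adora2b was highest at 24.6 ± 7.22 FPKM, followed by P2rx4 at 17.8 ± 0.960, P2ry2 at 14.3 ± 3.79, Nt5e at 8.85 ± 3.15 and Entpd1 at 8.30 ± 1.76 (SD, n = 3 each). Neighbours among these 5 overlapped in their libraries, so this order is not firm. Below a gap came Entpd2 at 2.24, Ada at 1.77 and P2rx7 at 1.30 FPKM, then Adora2a at 0.563 and Adora1 at 0.00806. The libraries did not overlap between Entpd1 and Entpd2, between P2rx7 and Adora2a, or between Adora2a and Adora1. In WT, 76.7% of the tested genes had a lower mean FPKM than Adora2b.

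In DKO the order began with P2rx4 at 25.5 ± 3.51 FPKM, clear of P2ry2 at 11.2 ± 1.25. Nt5e followed at 10.1 ± 0.185 and Entpd1 at 9.39 ± 1.34, and Adora2b came only then, at 7.57 ± 1.61 (SD, n = 3 each). Neighbours from P2ry2 to Adora2b overlapped, and Adora2b was clear of Entpd2 at 2.84 FPKM. P2rx7 at 2.37, Ada at 0.730, Adora2a at 0.672 and Adora1 at 0.0288 FPKM followed, and of these only Ada and Adora2a overlapped. The ratio of Adora2b to P2rx4, a measure within each library, was 0.270 to 0.337 in DKO and 0.968 to 1.68 in WT. The share of tested genes below Adora2b was 47.2% in DKO. With counts per kilobase of gene model in place of FPKM, Adora2b was again first in WT but P2rx4 moved from place 2 to place 5 (4.16 CPM per kilobase). Adora2b also lay above P2rx4 per kilobase in DKO, with 13.9 and 39.4 CPM over gene models of 1845 and 7025 bases. The place of P2rx4, the place of Adora2b in DKO and the ratios of Adora2b to P2rx4 thus depend on the transcript length used.

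**Figure D2:**
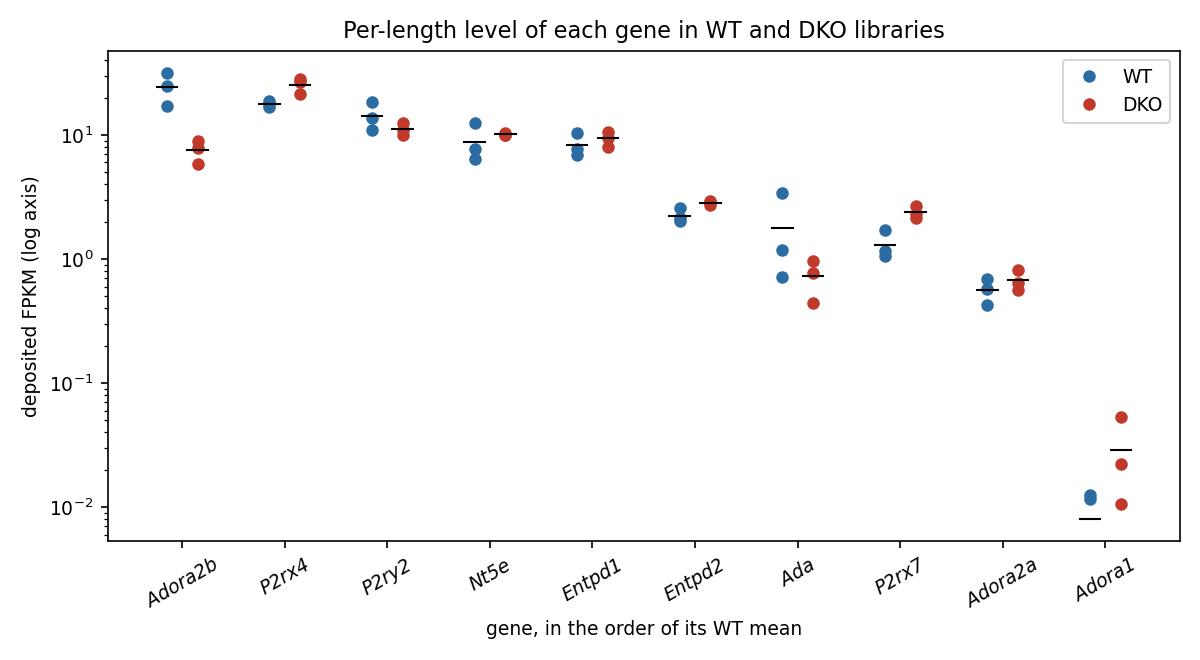
Levels of the 10 genes in FPKM (log axis) in each DKO and WT library, ordered by the WT mean; points are libraries and short lines the group means. Adora2b is highest in WT at 17.2 to 31.6 FPKM and sits at 5.82 to 9.005 in DKO, and Adora1 in WT 1 is listed at 0 and is not drawn.

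Some of the 10 genes had the same order of libraries within WT. WT 1 was the highest of the 6 libraries for Adora2b, P2ry2 and Nt5e, while WT 3 was the lowest WT library for all 3 of them. Adora2a had the same order within WT (1.82 CPM in WT 1 and 1.09 in WT 3), but DKO 1 was its highest library (2.06). Entpd1 and P2rx7 ran otherwise, with WT 2 lowest.

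Cells that are not epithelial are known to carry some of these genes. Markers of leukocytes, in which P2rx4, P2rx7 and Entpd1 are known to be expressed, summed to 349 to 525 CPM in DKO and 243 to 354 in WT. Of 17 tested markers 16 had a log2 fold change above 0 (median 0.37), with 0 called by edgeR and 8 at an unadjusted p of 0.05. Over all tested genes, 48.7% lay above 0, 1.04% were called and 18.0% passed an unadjusted p of 0.05. For endothelium the sums were 497 to 546 CPM in DKO and 354 to 480 in WT, with 11 of 12 markers above 0 (median 0.35). For mesenchyme they were 10726 to 13273 and 6914 to 11376, with 12 of 12 above 0 (median 0.33). WT 2 had the lowest sum of all 3 lists and the lowest CPM of P2rx4, P2rx7 and Entpd1. By FPKM, P2rx7 was lowest in WT 1 (1.05, against 1.15 in WT 2). P2rx7 and Entpd1 were highest in DKO 4 by CPM, as was the leukocyte sum. Entpd1 was highest in DKO 1 by FPKM (10.7), above WT 3 (10.3) and DKO 4 (9.52). P2rx4 was highest in DKO 3 (42.8 CPM), which had the lowest leukocyte and mesenchyme sums of the DKO libraries (349 and 10726 CPM). The highest leukocyte markers were Cd74 (107 ± 24.7 CPM in WT, 127 ± 15.4 in DKO) and Lyz2 (51.6 ± 10.8, 107 ± 43.9), those of endothelium Eng (74.3 ± 7.92, 102 ± 4.66) and Flt1 (75.0 ± 23.1, 55.6 ± 2.65), and those of mesenchyme Col1a1 (3269 ± 763, 3844 ± 254) and Col1a2 (3118 ± 619.7, 3917 ± 477). No marker of these lists was at 0 in all libraries. Their part in the levels of P2rx4, P2rx7 and Entpd1 was not tested. Markers of neutrophils, nerve, muscle, stratum intermedium and ameloblasts had 0 called genes. Of their 42 tested genes 12 passed an unadjusted p of 0.05, against 18.0% of all tested genes, and 7 of the 12 were stratum intermedium markers.

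**Figure D3:**
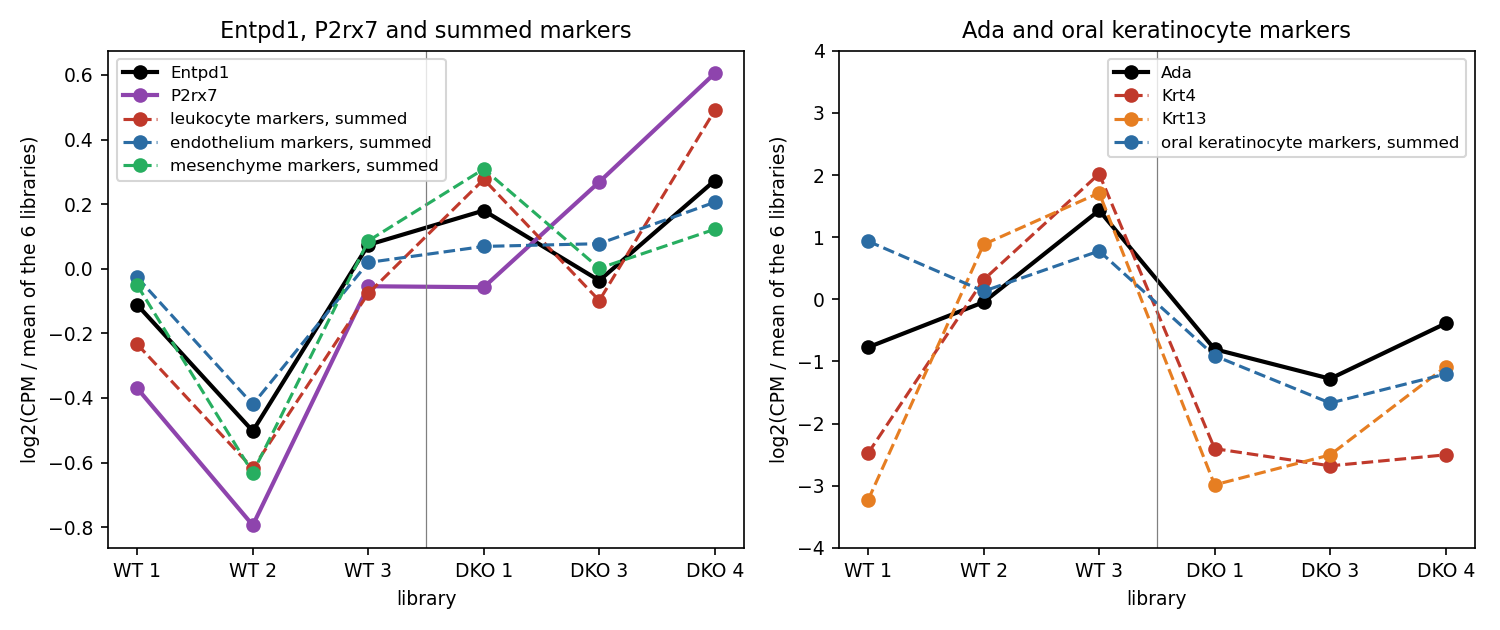
Log2 ratio of the CPM in each library (horizontal axis) to the mean of the 6 libraries, for Entpd1, P2rx7 and the summed leukocyte, endothelium and mesenchyme markers (left) and for Ada, Krt4, Krt13 and the summed oral keratinocyte markers (right); lines only join the points of a gene or list, and a vertical line separates WT from DKO. WT 2 is the lowest library of all 5 lines on the left, and WT 3 the highest for Ada and for Krt4 and Krt13, which were chosen after their values were seen, while the summed oral keratinocyte markers are highest in WT 1.

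The pathway around the 10 genes was read from 9 lists with 135 tested genes in all. Of these, 2 rose by edgeR, 0 fell, and 38 passed an unadjusted p of 0.05 (17 higher and 21 lower), with a median log2 fold change of 0.00. Over all 14721 tested genes, 1.04% were called by edgeR and 18.0% passed an unadjusted p of 0.05. Of the other purine receptors 8 were tested and 0 passed, although all 8 lay above 0 (median 0.31). P2ry6, a UDP receptor and the one with the highest FPKM of these, was at 13.7 ± 2.71 CPM in the WT libraries and 14.02 ± 2.24 in the DKO libraries, and P2ry1, an ADP receptor, at 4.44 ± 0.500 and 5.06 ± 0.161 (SD, n = 3). P2rx5, an ATP-gated channel, was at 5.96 ± 0.460 and 8.55 ± 1.14 CPM (adjusted p = 0.146).

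None of the 15 tested ectoenzymes beside Entpd1, Entpd2 and Nt5e passed by edgeR. At an unadjusted p of 0.05, 3 passed, against 18.0% of all tested genes. Alpl, the phosphatase that also dephosphorylates AMP and is needed for mineralization, was at 1872 ± 521 CPM in WT and 2635 ± 277 in DKO. Enpp2 (autotaxin) was at 632 ± 177 and 443 ± 35.9, and Enpp1, which makes pyrophosphate from ATP, at 161 ± 40.4 and 180 ± 7.60 (SD, n = 3). Alpl and Enpp2 overlapped between groups and did not pass the test.

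Among 10 tested genes for ATP release, 1 rose, Gjb2, where 0.734% of all tested genes did. At an unadjusted p of 0.05, 5 of the 10 passed, 1 higher and 4 lower in DKO, against 18.0% of all tested genes. Groups did not overlap for 5 of the 10, against 23.3% of all tested genes. Gjb2 encodes connexin 26, a gap junction subunit whose hemichannels can pass ATP. It was at 22.3, 40.6 and 34.1 CPM in DKO 1, 3 and 4 and at 10.3, 7.27 and 13.2 in WT 1, 2 and 3. The DKO libraries were all above the WT libraries, 3.15-fold on average, with a log2 fold change of 1.65 and a standard error of 0.27 (adjusted p = 0.0432 by edgeR). Removal of DKO 3, DKO 4, WT 1 or WT 3 ended the call, with adjusted p-values between 0.0691 and 0.152. So did the 3 limma fits on FPKM (0.0625 to 0.197) and a filter on a mean of at least 50 counts (0.0508). The 4 lower genes, named after their values were seen, had groups that did not overlap and did not pass after adjustment: the connexin Gjb6 (log2 fold change -1.11, adjusted p = 0.0925), the pannexins Panx3 (-0.89, 0.179) and Panx2 (-0.74, 0.172), and Slc17a9, which loads ATP into vesicles (-0.40, 0.230). Connexin 43 (Gja1) was at 3172 ± 286 CPM in WT and 3418 ± 355 in DKO, Vdac1, a mitochondrial channel, at 199.9 ± 27.3 and 204 ± 9.24, and Panx1, a large-pore channel opened by calcium and caspases, at 55.6 ± 4.13 and 56.3 ± 4.01 (SD, n = 3).

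Of the nucleoside transporters, 4 were tested and 0 passed, and 0 passed an unadjusted p of 0.05. Slc29a3, a transporter of lysosomes, was at 38.4 ± 1.10 CPM in WT and 38.1 ± 0.835 in DKO, the surface transporters Slc29a1 at 7.05 ± 2.31 and 9.14 ± 0.330, and Slc29a2 at 5.43 ± 0.430 and 4.87 ± 0.645 (SD, n = 3). Of the 25 tested genes of intracellular adenosine and purine turnover 0 passed (5 at an unadjusted p of 0.05, against 18.0% of all tested genes). The highest by FPKM were Ahcyl2 and Ahcyl1, relatives of the enzyme that splits S-adenosylhomocysteine into adenosine and homocysteine, and Ak1, adenylate kinase. Ahcyl2 was at 998 ± 140.0 CPM in WT and 990.0 ± 21.1 in DKO, Ahcyl1 at 388 ± 24.1 and 371 ± 43.9, and Ak1 at 251 ± 6.56 and 293 ± 26.0 (SD, n = 3).

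Where 0.734% of all tested genes rose, 1 of 41 tested genes on the list of G proteins and cAMP signalling did, Creb3l1. It encodes a transcription factor of the endoplasmic reticulum that acts on secretory and collagen genes. No change of cAMP signalling is read from it. It was at 49.9, 57.4 and 61.3 CPM in DKO and at 33.8, 27.5 and 33.9 in WT, 1.77-fold higher, with no overlap and a log2 fold change of 0.82 with a standard error of 0.11 (adjusted p = 0.0216 by edgeR). Removal of DKO 3, DKO 4 or WT 3 ended it, with adjusted p-values between 0.0656 and 0.101, as did the 3 limma fits on FPKM (0.0510 to 0.169). Gnai2 and Prkar1a, an inhibitory G protein and a regulatory subunit of protein kinase A, were at 321 ± 24.6 and 352 ± 22.5 CPM in WT against 354 ± 2.86 and 369.7 ± 6.80 in DKO (SD, n = 3). Gnas, which encodes the stimulatory G protein that Adora2b uses, had only 10.6 ± 1.09 and 12.7 ± 3.22 CPM (SD, n = 3) although its mean FPKM was 515, so its counts are uncertain and no direction is read from them.

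**Figure D4:**
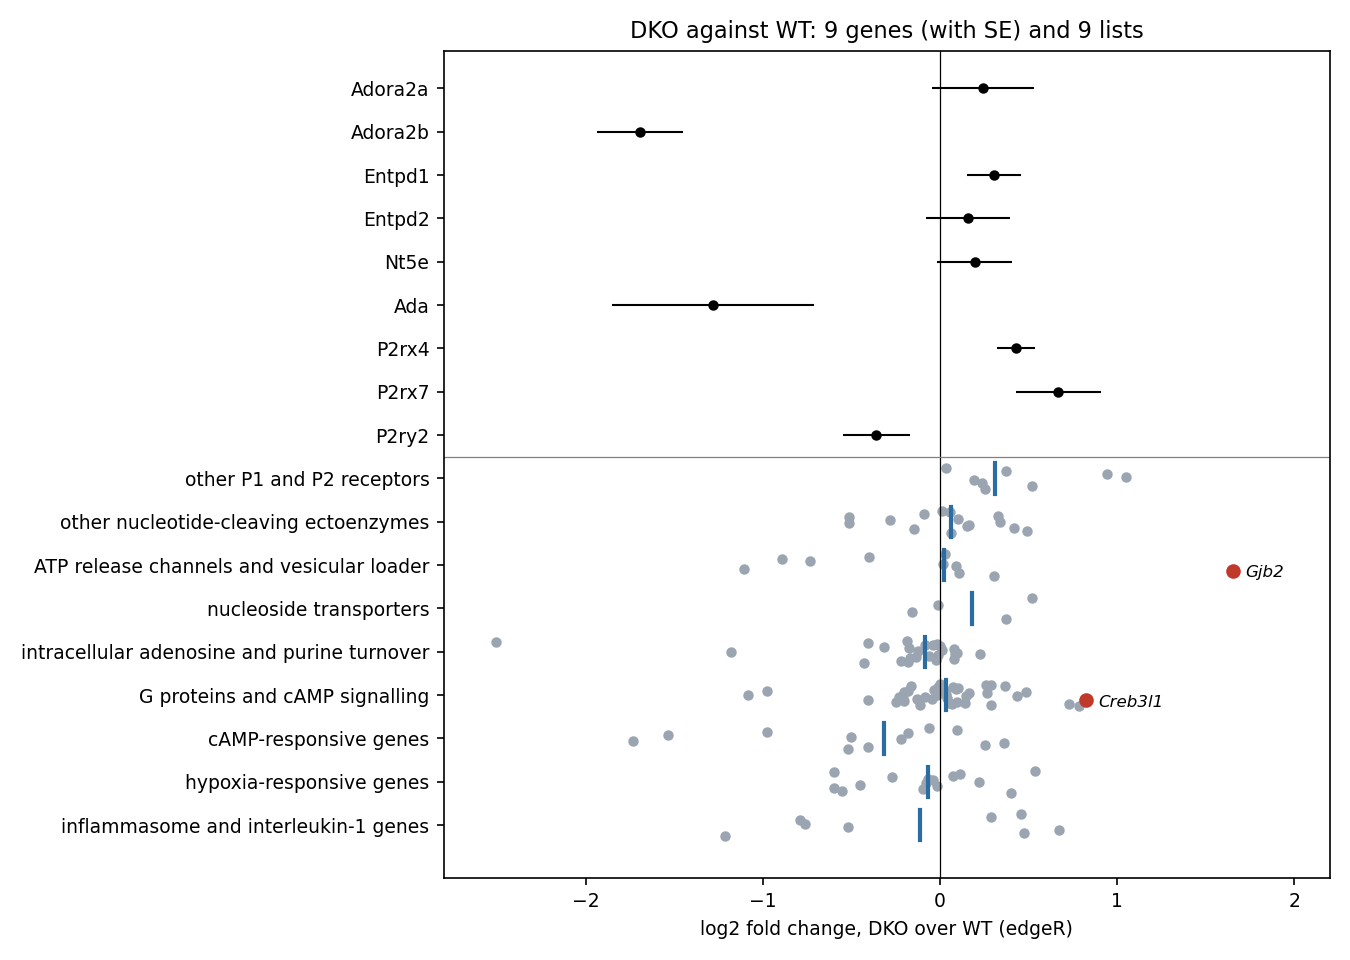
Log2 fold changes of DKO over WT: the upper rows show 9 of the 10 genes (points with standard error; Adora1 was not tested), and the lower rows the tested genes of 9 lists (dots) with each list's median (bars). Adora2b lies farthest from 0 among the 9 genes at -1.69, and Gjb2 and Creb3l1, in red, are the genes called in the lists.

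Genes known to respond to cAMP were read because Adora2b raises cAMP. None of 12 passed by edgeR, and the median log2 fold change was -0.31. At an unadjusted p of 0.05, 5 passed, 4 lower and 1 higher in DKO, against 18.0% of all tested genes. Dusp1, a phosphatase, and Per1, a clock gene, had overlapping groups, at 39.4 ± 7.70 and 65.3 ± 23.7 CPM in WT and 47.1 ± 5.39 and 69.7 ± 22.7 in DKO. Crem, a repressor of cAMP transcription, was at 13.1 ± 0.563 CPM in WT and 9.88 ± 0.425 in DKO, without overlap (SD, n = 3; adjusted p = 0.119). Nr4a3, named after its values were seen, was also lower in DKO without overlap (log2 fold change -1.54, adjusted p = 0.0609 by edgeR). It was called in 3 of 16 alternatives, DESeq2 among them (adjusted p = 8.4e-05), and the adjusted p ranged up to 0.291.

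Of 15 hypoxia-responsive genes 0 passed by edgeR and 4 passed an unadjusted p of 0.05, against 18.0% of all tested genes. Hypoxia is a known inducer of Adora2b and Nt5e. Ldha and Pgk1 encode enzymes of glycolysis. Ldha was at 601 ± 61.4 CPM in WT and 585 ± 36.4 in DKO, Pgk1 at 307 ± 28.4 and 333 ± 26.9, and the hypoxia factor Hif1a itself at 396 ± 45.6 and 460.5 ± 28.0 (SD, n = 3). All 3 overlapped between the groups.

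Inflammasome genes were read because P2rx7 is known to switch this complex on in macrophages. None of 8 tested passed by edgeR and 3 passed an unadjusted p of 0.05, against 18.0% of all tested genes. Casp1, the protease of the complex, was at 95.7 ± 40.0 CPM in WT and 41.3 ± 9.90 in DKO (SD, n = 3; log2 fold change -1.21, adjusted p = 0.124), and passed without WT 2 (0.0173; 0.00432 to 0.421 over all alternatives). Pycard, its adaptor, was at 27.5 ± 2.88 and 37.8 ± 2.87 CPM (adjusted p = 0.0885 by edgeR, 0.0129 to 0.253 over all alternatives). DESeq2 called it (0.0129), as did edgeR without the low-count filter (0.0363). Gsdmd, which forms the pore, was at 3.78 ± 1.06 and 6.04 ± 0.894 (adjusted p = 0.195 by edgeR, 0.127 to 0.410 over all alternatives). The groups of all 3 genes did not overlap, with Casp1 lower and Pycard and Gsdmd higher in DKO. Groups did not overlap for 23.3% of all tested genes.

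The genes whose levels moved most like Adora2b over the 6 libraries were found by the root mean square difference of log2 CPM, each gene centred on its own mean, among 13603 protein-coding genes. The closest was Nr4a3, an orphan nuclear receptor and early-response gene that is also on the list of cAMP-responsive genes, at a difference of 0.21. It had 2.81, 3.87 and 4.12 CPM in DKO 1, 3 and 4 and 15.1, 8.29 and 7.85 in WT 1, 2 and 3. Like Adora2b it was lowest in DKO 1 and highest in WT 1. Stim1 itself was next at 0.25, then Rmi2, Sertm1 and Dnah7c at 0.35, 0.37 and 0.37, which were each at or below 1.15 CPM in every library. The likeness rests on 6 libraries of 2 groups, and every gene that is lower in DKO resembles Adora2b in part for that reason.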

How the data were processed

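Libraries were made per the labels' protocols from 500 ng of RNA treated with DNase, with a TruSeq v2 kit that does not mark strand and 12 cycles of PCR, and were read from both ends, 150 nt each. The authors deposited 1 table of whole-number counts per Ensembl gene and library, not normalised, and 1 Cufflinks table of FPKM values (per the file headers). The submitters' processing notes name Trimmomatic 0.32, Cufflinks 2.2, HTSeq and GRCm38. Which aligner, annotation release and counting options were used is not stated in the sources used here.

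The tables held 46603 genes and 0 rows that named no gene. Positions (1-based) are those of GENCODE vM21 for GRCm38, found for 46091 genes. It can differ from the authors' release. Counts were tested with edgeR 4.0.16 in R 4.3.3 (TMM, filterByExpr, quasi-likelihood, Benjamini-Hochberg over 14721 genes, called below 0.05). Alternatives were DESeq2 1.42.0, limma 3.58.1 on log2(FPKM + 1) or log2(FPKM + 0.1), other scalings and filters, a replicate block, a term for high Xist and the removal of each library. Fold changes on the log2(FPKM + 1) scale understate those of low genes.

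The 10 genes and all lists were chosen with earlier results of these data known. Named beyond them are Stim1 and Stim2, every called gene and the 3 highest by FPKM of each pathway list, the 5 genes most like Adora2b, and, for marker lists set beside a result, the 2 highest by CPM and any called. Of the genes this rule names, 1 is not reported here. The sources name no separate animals for the replicates, so a p-value here reflects the spread between the samples alone, and that spread may be technical. The libraries held 18609759 to 22829411 counts, and 3 libraries per group limit the precision. Reads carry no molecular identifiers, so counts are not counts of molecules.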

Additional observations from a re-analysis of the deposited data

How the results depend on the processing

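No direction of the 9 tested genes, of Stim1, Stim2, Gjb2 or Creb3l1 was reversed in any fit that was run. Over all genes, the 153 calls became 554 without the low-count filter, 866 with DESeq2, 328 with the replicate block (132 higher and 196 lower), 71 with a term for high Xist, 77 and 77 with limma on log2(FPKM + 1) and log2(FPKM + 0.1), and 11 with limma on all genes above 0. Leaving out 1 library gave 21 to 335 calls, the most without WT 2 (124 higher and 211 lower). The 8 tested genes beside Adora2b had 0 calls in edgeR and limma under every alternative, leave-one-out fits included (0 to 0), and 1 with DESeq2, P2rx4. Not all settings tested the same number: 9 were tested without the filter and in limma on all genes above 0. With a mean of at least 50 counts 5 were tested, and 6 in the other limma fits. The 135 other purine-signalling genes had 2 calls, 10 with DESeq2 and 9 with the replicate block. There were 6 among 148 tested without the filter, and 1 among 116 with a mean of at least 50 counts. The 3 limma fits gave 0, 0 and 0 among 120, 120 and 147 tested, where 24, 24 and 21 passed an unadjusted p of 0.05. Over all genes, 2028 and 2021 of 13355 and 2788 of 25987 passed that threshold in these 3 fits. Leaving out 1 library gave 0 to 9, with 0 without DKO 3, DKO 4 or WT 3, 1 without WT 1 and 9 without WT 2. The causes were not tested. Only the numbers 1 and 3 occur in both groups, so fold changes with the replicate block rest on these numbers, without DKO 4 and WT 2. Deviations from the group means correlated at 0.189 for number 1 and 0.0001 for number 3, and the labels do not say what a number stands for. Both libraries numbered 1 have high Xist and both numbered 3 low Xist. Comparisons within high and low Xist were chosen after seeing the data. In them the log2 ratio of Entpd2 was 0.13 and -0.04, and that of Nt5e 0.00 and 0.66. Depth limits Adora1, with 5 counts in all. Of the tested genes, Ada and Adora2a had the widest standard errors, 0.57 and 0.29 on the log2 scale.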
